A study of Mus musculus with 6 samples.

Results

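The genes of the voltage-gated sodium channels, the voltage-gated calcium channels and the hyperpolarization-activated HCN channels were examined in RNA-seq libraries of sorted olfactory bulb cells with and without Sox9. The members were chosen by gene symbol (Scn, Cacna1, Cacnb, Cacna2d, Cacng and Hcn with their numbers and letters). The symbol rule used no expression value, but earlier results of these data were known when the members and the lists below were chosen. This gave 43 of the 24421 genes listed. They comprised 9 sodium channel alpha subunits (Scn1a to Scn11a), 4 sodium channel beta subunits, 10 calcium channel alpha1 subunits, 4 calcium channel beta subunits, 4 alpha2delta subunits, 8 gamma subunits, most of them also known as TARPs, and 4 HCN channels. The sodium channel gene Scn2a is listed under its older symbol Scn2a1, which the symbol rule does not match, so its values are given but not counted.

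Libraries came from 6 adult male mice, 1 library per mouse. The 3 control mice (replicates 1 to 3) were C57BL/6J, named Sox9+/+ in the study's methods, and the 3 KO mice (replicates 1 to 3) were Sox9fl/fl, in which Cre removes the floxed part of Sox9. All of them received AAV-GFAP-iCre-P2a-TurboRFP in the olfactory bulb, and red fluorescent cells were sorted 4 weeks later. Cre and TurboRFP were driven by the GFAP promoter, so that the sort rested on the activity of this promoter, and the floxed allele was carried by the KO mice alone.

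Voltage-gated sodium and calcium channels open when the membrane depolarizes. A single large alpha or alpha1 subunit forms the pore and senses voltage, and smaller subunits (sodium channel beta, calcium channel beta and alpha2delta) carry it to the membrane and tune its gating. HCN channels open on hyperpolarization, pass sodium and potassium and are bound by cyclic nucleotides, and most of the gamma subunit genes encode TARPs, which carry AMPA-type glutamate receptors to synapses. These channels are best known from neurons, where they shape spikes, transmitter release and rhythmic firing, while glial cells carry some of them at the RNA level.

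Values are normalized counts, that is, the reads on a gene after division by the size factor of the library. The 3 values of a group are listed in the order of replicates 1, 2 and 3, and SE stands for the standard error of a log2 fold change. Reads on genes ranged from 18242129 to 86906527 per library, and a single read was worth between 0.395 and 1.58 normalized counts. The targeted gene Sox9 was at 5185, 6562 and 4921 in control and at 52.6, 64.3 and 57.7 in KO (log2 fold change −6.55, SE 0.15, adjusted p = 2.5e-09, limma). The labelled cell type was checked against marker lists. The summed level of 12 astrocyte markers was 508410 to 573360 in control and 34981 to 45163 in KO, and that of 12 microglia and macrophage markers was 150330 to 180130 in control and 503640 to 598240 in KO. The mean of the KO libraries was thus 7.27% of the control mean for the astrocyte markers and 349.8% for the microglia and macrophage markers, and markers of cells other than astrocytes were present in both groups. The 15 neuron markers summed to 27786 to 34850 in control and 4440 to 7281 in KO. These shifts accompany every comparison below, and their part in the channel results was not tested. In bulk RNA from sorted cells, fewer cells of a type and less RNA per cell cannot be told apart.

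Most channel genes were lower in the KO libraries. A gene counted as called at an adjusted p under 0.05 (limma on log2(normalized count + 1), two-sided, Benjamini-Hochberg adjustment over the 18413 genes with a mean of at least 1) and a change of at least 1.5-fold. Of the 43 members, 41 were tested. Cacng1, a subunit known from skeletal muscle, was listed at 0 in all 6 libraries, and Cacng6 had between 0 and 1.58 normalized counts. Of the 41 tested, 31 were called lower in KO, against 28.8% of all genes tested. Only Cacna1s was called higher, against 22.2% of all genes tested, and 9 were not called. The filter asked only for a mean over all libraries, so the 41 are not all members. The median log2 fold change was −2.25 over the tested members and −0.07 over all genes tested, and the members ranged from −4.24 (Cacna1h) to 1.74 (Cacna1s). In 31 members every KO library was below every control library, against 34.7% of all genes tested, and in 3 (Cacna1d, Cacna1f and Cacna1s) every KO library was above, against 32.4%. The other 7 overlapped between the groups.

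**Figure D1:**
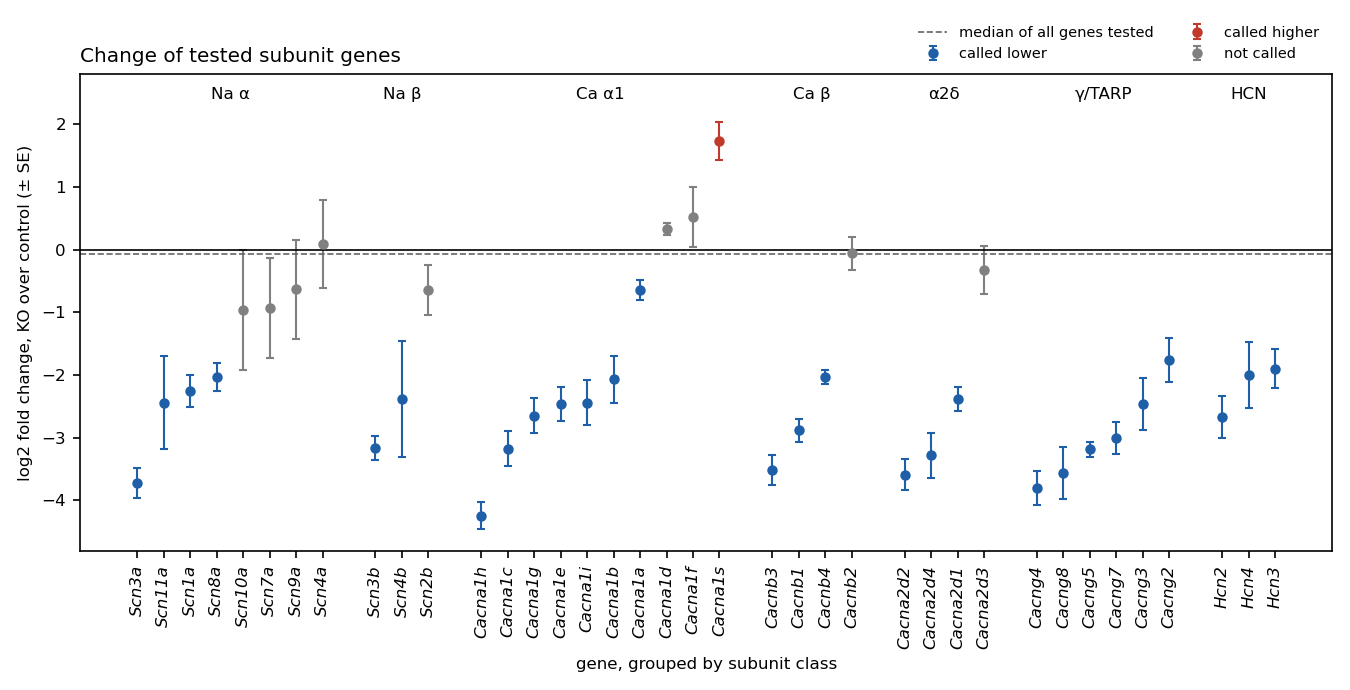
Log2 fold change of KO over control (vertical axis, points, with bars of 1 standard error from limma, n = 3 libraries per group) for 38 of the 41 tested members, grouped by subunit class on the horizontal axis. Of those drawn, 28 were called lower (blue), 1 was called higher (red) and 9 were not called (grey), and the dashed line marks the median of all genes tested at −0.07.

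The calls were spread over all classes. Each count of calls here and below stands beside 28.8% called lower and 22.2% called higher among all genes tested. Among pore-forming genes (sodium channel alpha, calcium channel alpha1 and HCN), 16 of 23 were called lower and 1 higher, with a median of −1.99. Among the auxiliary subunits 15 of the 18 tested were called lower and none higher, with a median of −2.67. Of the 24 members with a mean of at least 100 normalized counts, 22 were called lower, and the exceptions were Cacna1d and Cacnb2. Of the 17 tested members with a lower mean, 9 were called lower and 1 higher. The shares of all genes above and below this mean were not computed, so these counts have no background of like level.

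**Figure D2:**
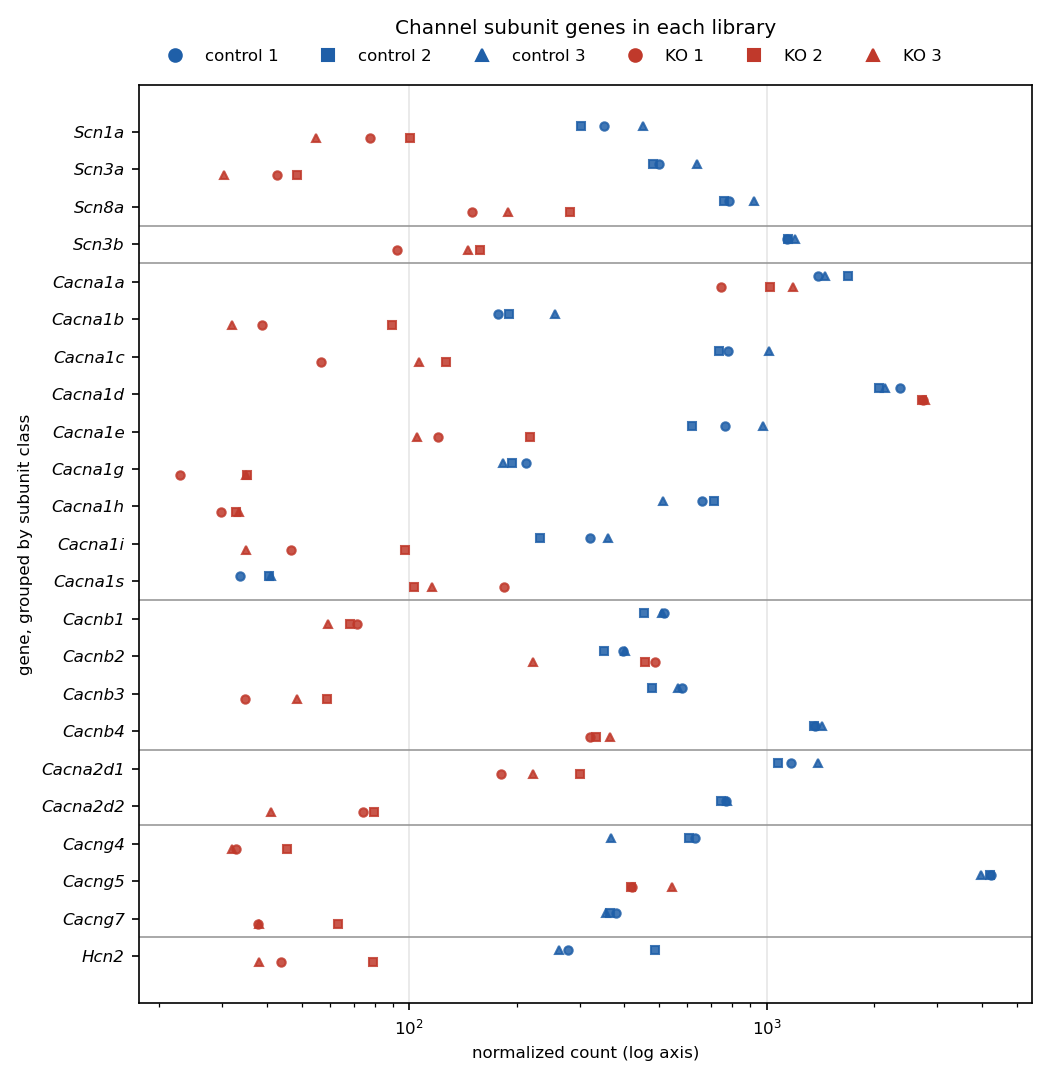
Normalized counts (horizontal log axis) in each of the 3 control libraries (blue) and 3 KO libraries (red), with the marker shape giving the replicate, for 22 members with a mean of at least 100 and for Cacna1s. The red points lie left of the blue points in 20 of these genes, overlap with them in Cacnb2 and lie right of them in Cacna1d and Cacna1s.

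Sodium channel alpha subunits form the pore that carries the upstroke of the action potential. Scn1a, Scn3a, Scn8a and Scn11a were called lower, and no gene of the class was called higher. Scn8a, a main sodium channel of the axon initial segment, had 785, 758 and 921 normalized counts in control and 150, 281 and 188 in KO. The log2 fold change was −2.03 (SE 0.22, adjusted p = 1.6e-05, limma), and the lowest control lay far above the highest KO library, replicate 2. Scn1a, prominent in fast-spiking inhibitory neurons, had 351, 301 and 451 in control and 77.4, 100 and 54.7 in KO, a log2 fold change of −2.25 (0.26, adjusted p = 3.0e-05, limma). Again all KO libraries lay below all controls, and KO replicate 2 was the highest of them. Scn3a, best known from the embryonic brain, had 500, 480 and 640 in control and 42.7, 48.6 and 30.4 in KO. Its log2 fold change of −3.72 (0.24, adjusted p = 4.1e-07, limma) was the lowest of the class, and its KO libraries lay close together. Scn2a1, outside the rule, had 593, 629 and 812 in control and 175, 214 and 123 in KO, with a log2 fold change of −2.01 (0.22, adjusted p = 1.8e-05, limma), which is close to that of Scn8a.

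Other alpha subunits were low in all libraries. Scn11a, known from peripheral sensory neurons, rested on 18 reads in control and 2 in KO, which gives a ratio of 13.6 with an exact 95% interval of 3.26 to 121 that covers counting error only, and its call (adjusted p = 0.015, limma) was lost without control replicate 1. Scn10a, from the same sensory neurons, was read 4 times in control replicate 3 and listed at 0 elsewhere. Scn4a, the skeletal muscle sodium channel, stayed under 5 normalized counts, and Scn9a ran from 11.7 to 28.4 in control and from 3.16 to 42.5 in KO. Scn7a, a sodium-sensing channel also known from glia, was at 57.0, 26.2 and 77.2 in control and at 4.96, 45.0 and 63.8 in KO, so that its groups overlapped. None of Scn4a, Scn7a, Scn9a and Scn10a was called.

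Sodium channel beta subunits are small membrane proteins that modulate gating and adhere to other cells. Scn3b and Scn4b were called lower, and no gene of the class was called higher. Scn3b had 1141, 1144 and 1196 normalized counts in control and 92.3, 158 and 146 in KO, a log2 fold change of −3.16 (SE 0.20, adjusted p = 3.4e-07, limma). The lowest control lay well above the highest KO library. Scn4b was between 21.3 and 31.5 in control and at 0, 5.13 and 19.7 in KO, with a log2 fold change of −2.37 on a SE of 0.93 (adjusted p = 0.046, limma). This call was lost without any of control replicates 1, 2 and 3 and KO replicates 1 and 2, and without KO replicate 1 the value was −1.21, without KO replicate 3 it was −3.40. With edgeR and DESeq2 it was −1.69 and not called. Scn2b was not called, at 50.2 to 94.6 in control and 27.3 to 65.9 in KO.

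Calcium channel alpha1 subunits fall into L-type (Cacna1c, Cacna1d, Cacna1f, Cacna1s), P/Q-, N- and R-type (Cacna1a, Cacna1b, Cacna1e) and T-type channels (Cacna1g, Cacna1h, Cacna1i). All 3 T-type genes, whose channels open at voltages near rest, were called lower. Cacna1h had 658, 713 and 514 normalized counts in control and 29.8, 32.8 and 33.4 in KO, and its log2 fold change of −4.24 (SE 0.21, adjusted p = 7.8e-08, limma) was the lowest of the 41 tested members. Cacna1g had 212, 193 and 183 in control and 22.8, 35.1 and 34.9 in KO (−2.65, 0.28, adjusted p = 1.4e-05, limma). Cacna1i had 320, 232 and 361 in control and 46.7, 97.5 and 34.9 in KO (−2.44, 0.36, adjusted p = 0.00017, limma). In Cacna1i KO replicate 2 was well above the other KO libraries, while the KO libraries of Cacna1h spanned a range of under 4 normalized counts.

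All 3 genes of the P/Q-, N- and R-type channels, which couple spikes to transmitter release, were called lower. Cacna1a, the P/Q-type pore, had 1393, 1688 and 1452 normalized counts in control and 745, 1022 and 1187 in KO. Its log2 fold change was only −0.64 (SE 0.16, adjusted p = 0.0062, limma), all KO libraries lying below all controls, and its call was lost without control replicate 2 (−0.56) and without KO replicate 1 (−0.45), where the change fell short of 1.5-fold. Cacna1b, the N-type pore, had 177, 191 and 255 in control and 38.7, 89.6 and 31.9 in KO (−2.07, 0.37, adjusted p = 0.00071, limma). Cacna1e, the R-type pore, had 764, 619 and 979 in control and 120, 218 and 105 in KO (−2.46, 0.27, adjusted p = 2.1e-05, limma). KO replicate 2 was the highest KO library of Cacna1b and Cacna1e, and KO replicate 3 that of Cacna1a.

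Of the 4 L-type genes, 1 was called lower, 1 higher and 2 were not called. Cacna1c, the L-type pore of heart, smooth muscle and many neurons, had 780, 737 and 1012 normalized counts in control and 56.6, 127 and 106 in KO, a log2 fold change of −3.18 (SE 0.28, adjusted p = 3.8e-06, limma). Cacna1d, an L-type pore that opens at more negative voltages, lies at chr14:30039939-30491455 (minus strand, GRCm38). It had 2359, 2058 and 2139 normalized counts in control and 2744, 2715 and 2769 in KO. The KO libraries lay close together and above all controls, with a log2 fold change of 0.33 (SE 0.09, adjusted p = 0.0084, limma) that fell short of 1.5-fold, so that it was not called. When all libraries were given an equal total without Rn45s, the ribosomal RNA precursor, the log2 fold change of Cacna1d was 0.00 (adjusted p = 0.98, limma), and with quantile normalization 0.14. The gene Chdh, on the opposite strand over 4.67% of its exon bases, had 83.3 to 89.8 in control and 45.8 to 62.3 in KO.

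Cacna1s, the L-type pore and voltage sensor of skeletal muscle, was the member called higher. It lies at chr1:136052750-136119822 (plus strand, GRCm38) and had 33.6, 40.6 and 41.0 normalized counts in control and 185, 103 and 115 in KO. All KO libraries were above all controls, replicate 1 the furthest, and the log2 fold change was 1.74 (SE 0.30, adjusted p = 0.00058, limma). With each library left out in turn it stayed between 1.49 and 1.91, and quantile normalization moved it to 2.47. Another annotated gene on the opposite strand, Gm37759, covers 19.98% of the exon bases of Cacna1s and is not listed in these data under this symbol. The study's sources read here do not say whether the counting used strand, so reads of the 2 genes cannot be told apart in that part. Cacna1f, known from the retina, was at 5.85 to 9.63 in control and 10.9 to 13.7 in KO and was not called (log2 fold change 0.52, adjusted p = 0.37, limma).

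Promoters were matched for 31 of the 43 members in RefSeq windows of 250 bases before and 50 after a start site (GRCm38.p6). The motifs ACAAAG and ACAATG, core letters of Sox family sites, were searched on both strands. At least 1 of them was present in the windows of 8 of the 31 members (25.8%), against 31.7% of all genes with a window, so that the members were near the background. Of these 8, Scn9a, with 3 matches in its window, was not called. Counted per window, 28.57% of the windows of members called lower held a motif, beside 28.6% of all windows. Of the 20 matched members called lower, 7 (35.0%) held a motif (Cacna1c, Cacna1e, Cacna1i, Cacnb1, Cacnb3, Cacnb4 and Scn8a). The bases before the start site are printed for 2 of the pore genes among these, Cacna1c and Cacna1i, with the motif in capitals, and for Cacng5, the member with the highest control level per kb, whose windows held none. Each runs 5′ to 3′ on the strand of its gene, Cacna1c at chr6:119196410-119196659 (minus strand), Cacna1i at chr15:80286988-80287237 (plus strand) and Cacng5 at chr11:107915056-107915305 (minus strand).
Cacna1c: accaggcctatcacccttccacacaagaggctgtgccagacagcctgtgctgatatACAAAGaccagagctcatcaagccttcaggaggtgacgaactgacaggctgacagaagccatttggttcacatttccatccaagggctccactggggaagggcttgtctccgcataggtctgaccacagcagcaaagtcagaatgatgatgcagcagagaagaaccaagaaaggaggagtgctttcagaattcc
Cacna1i: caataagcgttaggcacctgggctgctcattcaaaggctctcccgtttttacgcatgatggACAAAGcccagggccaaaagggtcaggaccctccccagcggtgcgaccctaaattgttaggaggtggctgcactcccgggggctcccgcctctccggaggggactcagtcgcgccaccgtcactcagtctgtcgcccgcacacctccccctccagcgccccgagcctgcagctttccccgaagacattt
Cacng5: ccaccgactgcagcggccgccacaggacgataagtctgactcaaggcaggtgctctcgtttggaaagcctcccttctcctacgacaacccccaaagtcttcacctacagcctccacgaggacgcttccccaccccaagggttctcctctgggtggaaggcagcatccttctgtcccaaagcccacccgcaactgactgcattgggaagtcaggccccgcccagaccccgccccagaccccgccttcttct
The motif begins at base 57 of the stretch in Cacna1c and at base 62 in Cacna1i, counted from the 5′ end. Cacna1c has 2 further windows without the motif. A match of these letters does not show a binding site, and its absence from a window says nothing of the factor.

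Calcium channel beta subunits bind the alpha1 subunit inside the cell and bring it to the membrane. Of the 4, 3 were called lower. Cacnb3 had 579, 479 and 564 normalized counts in control and 34.7, 58.8 and 48.6 in KO, a log2 fold change of −3.51 (SE 0.23, adjusted p = 5.2e-07, limma). Cacnb1 had 516, 453 and 511 in control and 71.5, 68.3 and 59.2 in KO (−2.88, 0.18, adjusted p = 3.8e-07, limma). Both lay far below control in every KO library, with little spread. Cacnb4 had 1362, 1355 and 1430 in control and 321, 333 and 365 in KO (−2.02, 0.11, adjusted p = 1.5e-07, limma). Per kb of merged exon Cacnb4 led the group in control. This rank depends on the length used, as the longest transcript has 8225 bases in Cacnb4 and 2734 in Cacnb3. The gene A430018G15Rik, on the opposite strand over 16.0% of the exon bases of Cacnb4, is not listed in these data under this symbol. Cacnb2 had 396, 351 and 400 in control and 486, 456 and 222 in KO, so that 2 KO libraries lay above all controls and 1 below. Its log2 fold change was −0.06 with a SE of 0.27 (adjusted p = 0.86, limma), and without KO replicate 3 it was 0.30.

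The alpha2delta subunits sit on the outer face of the membrane, and those of Cacna2d1 and Cacna2d2 bind the drug gabapentin. Cacna2d1 had 1166, 1076 and 1390 normalized counts in control and 181, 301 and 222 in KO (log2 fold change −2.39, SE 0.19, adjusted p = 1.9e-06, limma). Cacna2d2 had 769, 744 and 774 in control and 74.5, 79.7 and 41.0 in KO (−3.59, 0.25, adjusted p = 6.7e-07, limma). In both, the KO libraries were well below control, with KO replicate 2 the highest of them. Cacna2d4 was lower as well, with 97.0 to 149 in control and 9.11 to 15.9 in KO (−3.28, adjusted p = 1.9e-05, limma). Cacna2d3 was not called, with 52.6, 30.3 and 67.8 in control and 36.7, 46.2 and 31.9 in KO, where the groups overlapped.

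All 6 gamma subunit genes tested were called lower. Cacng5, a TARP of the second type, had the highest control level of any member per kb of exon, with 4253, 4204 and 3988 normalized counts in control and 420, 417 and 544 in KO. The log2 fold change of −3.18 (SE 0.12, adjusted p = 1.8e-08, limma) lay far outside the spread of the libraries. Cacng4, also known from glia, had 630, 607 and 366 in control and 32.8, 45.4 and 31.9 in KO (−3.80, 0.27, adjusted p = 8.1e-07, limma). Cacng7, the other TARP of the second type, had 380, 365 and 355 in control and 37.7, 63.2 and 38.0 in KO (−3.00, 0.25, adjusted p = 2.6e-06, limma). KO replicate 2 was the highest KO library of Cacng4 and Cacng7, but not of Cacng5. The TARPs with fewer counts moved in the same direction. Cacng8 was at 118 to 148 in control and 5.96 to 17.8 in KO (−3.57, adjusted p = 3.2e-05, limma), Cacng3 at 47.5 to 61.4 and 5.96 to 13.4 (−2.46, adjusted p = 0.00049), and Cacng2, stargazin, at 63.0 to 96.4 and 16.9 to 28.0 (−1.76, adjusted p = 0.0015).

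Hcn2, Hcn3 and Hcn4 were called lower. Hcn2 had 278, 486 and 263 normalized counts in control and 43.7, 79.0 and 38.0 in KO (log2 fold change −2.67, SE 0.33, adjusted p = 5.2e-05, limma). The KO libraries of Hcn2 lay far below the controls, and replicate 2 was the highest of them. Hcn3 was at 107 to 123 in control and 24.3 to 43.0 in KO (−1.90, adjusted p = 0.00038, limma). Pklr, which overlaps 17.1% of the exon bases of Hcn3 on the opposite strand, was at 5.51 to 7.88 in control and 0 to 1.52 in KO. Hcn4 was at 28.9 to 43.8 in control and 4.96 to 16.7 in KO (−1.99, adjusted p = 0.0072, limma).

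Levels were then compared between genes per kilobase of exon (all exons of the gene merged, GENCODE annotation), by summing each class within a library. The sodium channel alpha class was summed without Scn2a1. The share of a gene in its class does not depend on the scaling of the library. The calcium channel alpha1 class was at 519 ± 5.76 normalized counts per kb in the 3 controls (mean ± SD) and at 354 ± 17.5 in the 3 KO libraries, a ratio of control to KO of 1.47, and without Cacna1d the ratio was 2.54. The other ratios were 2.89 for sodium channel beta subunits, 4.40 for sodium channel alpha subunits, 4.56 for calcium channel beta subunits, 4.57 for HCN channels, 6.48 for alpha2delta subunits and 9.10 for gamma subunits and TARPs. In each class the KO libraries lay below the controls, with a p of 0.10 in the exact permutation test (two-sided), which is the smallest that 3 against 3 libraries can give. The alpha1 class stood at 1.18, 1.29 and 1.18 times the calcium channel beta class in control and at 3.44, 3.57 and 4.42 times in KO. Relative to the alpha2delta class it stood at 2.27 to 2.64 in control and 8.88 to 13.2 in KO. Both ratios were higher in every KO library than in any control library (exact permutation p = 0.10 for each).

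Cacna1d and Cacna1a ranked first and second in the alpha1 class per kb in every library. Cacna1d held 35.9%, 31.8% and 32.4% of the alpha1 class per kb in control and 65.2%, 59.4% and 60.1% in KO, while the share of Cacna1a was 25.5% ± 2.91 in control and 24.2% ± 4.46 in KO (SD, n = 3). The T-type Cacna1h went from 12.4% ± 2.15 to 0.926% ± 0.011. The exact permutation test over the 14 shares tested (the 2 largest of each class) gave p-values from 0.10 to 0.90, and the smallest adjusted value was 0.20, so that no share could pass the threshold in this design.

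**Figure D3:**
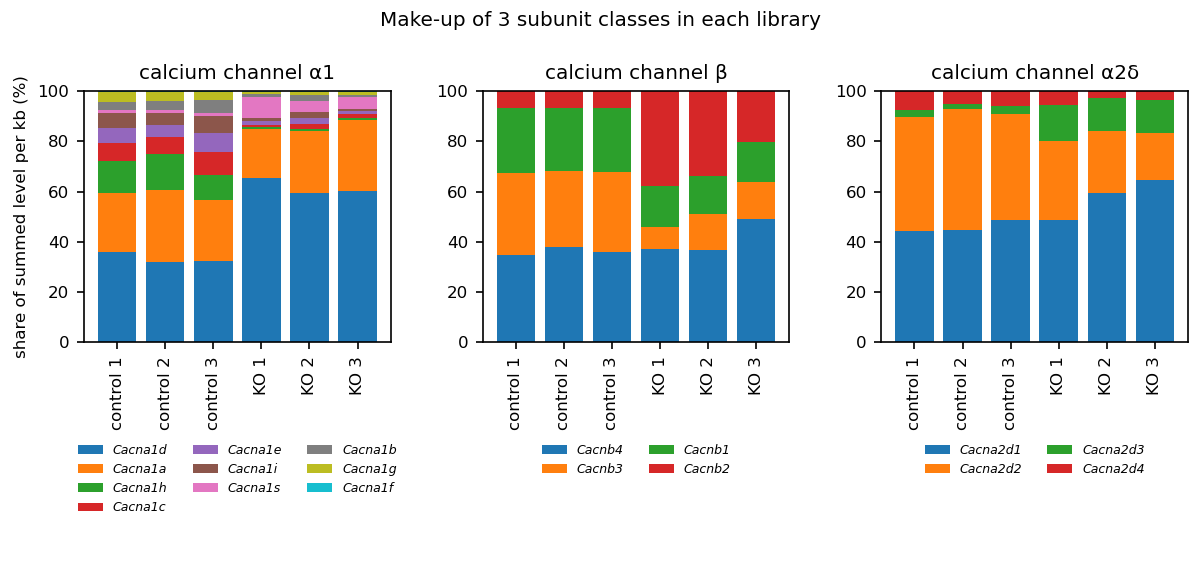
Share of each gene (vertical axis, percent) in the summed level per kb of exon of its class, for calcium channel alpha1, beta and alpha2delta subunits, in each of the 3 control and 3 KO libraries (horizontal axis). Cacna1d holds between 31.8% and 35.9% of the alpha1 class in control and between 59.4% and 65.2% in KO, and Cacnb2 between 6.68% and 6.83% of the beta class in control and between 20.3% and 37.9% in KO.

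Shares in the other classes were computed in the same way. Among calcium channel beta subunits Cacnb2 held 6.77% ± 0.079 in control and 30.7% ± 9.25 in KO (SD, n = 3). Cacnb3 held 31.5% ± 1.37 and 12.7% ± 3.26. Cacnb2 has 13228 merged exon bases but a longest transcript of 5030 bases, so the size of its share depends on the length used. Among alpha2delta subunits Cacna2d1 and Cacna2d2 were nearly level in control per kb of exon, at 45.8% ± 2.402 and 45.4% ± 2.999. They were apart in KO, at 57.7% ± 8.06 and 24.9% ± 6.38. The near level in control depended on the length correction, since the control means before it were 1211 and 762 normalized counts. Among the sodium channel alpha subunits counted, the share of Scn8a was 36.2% ± 2.38 in control and 39.7% ± 3.13 in KO. That of Scn3a was 29.9% ± 1.04 and 10.4% ± 3.88. Scn2a1 was left out of this class, so these shares would be smaller with it. Its mean was 53.3 normalized counts per kb in control and 13.4 in KO, beside 52.1 and 13.1 for Scn8a. Hcn2 led the HCN class with 64.8% ± 9.50 in control and 47.3% ± 2.05 in KO. The share of Cacng5 among gamma subunits and TARPs was 73.7% ± 2.09 in control and 74.3% ± 7.63 in KO (exact permutation p = 0.90), so this class kept its leading gene while its summed level was lower in every KO library.

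Channel levels were set beside the marker lists within each library. As a percentage of the control mean, the neuron markers were at 15.1%, 23.6% and 14.4% in KO replicates 1, 2 and 3. The sodium channel alpha class was at 16.0%, 29.4% and 22.8%, the HCN class at 17.0%, 32.4% and 16.2% and the alpha2delta class at 14.0%, 19.2% and 13.0%, so that KO replicate 2 was the highest of the KO libraries in these 3 classes and in the neuron markers. It was also the highest in the sodium channel beta and calcium channel beta classes, but not in the alpha1 class or the gamma subunits and TARPs. The gamma subunits and TARPs were at 9.65%, 11.3% and 12.04%, the astrocyte markers at 6.42%, 8.28% and 7.11% and the oligodendrocyte precursor markers at 7.91%, 11.8% and 12.4%. KO replicate 2 was the highest KO library in 25 of the 41 tested members (61.0%), against 35.1% of all genes tested. The same held for 86.7% of the neuron markers, 62.5% of the olfactory ensheathing cell markers, 50% each of the astrocyte and the oligodendrocyte precursor markers, 25.0% of the microglia and macrophage markers, 16.7% of the endothelial and mural markers and none of the oligodendrocyte markers. Without KO replicate 2, 30 members were called lower. The part of any cell type in these values was not tested.

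**Figure D4:**
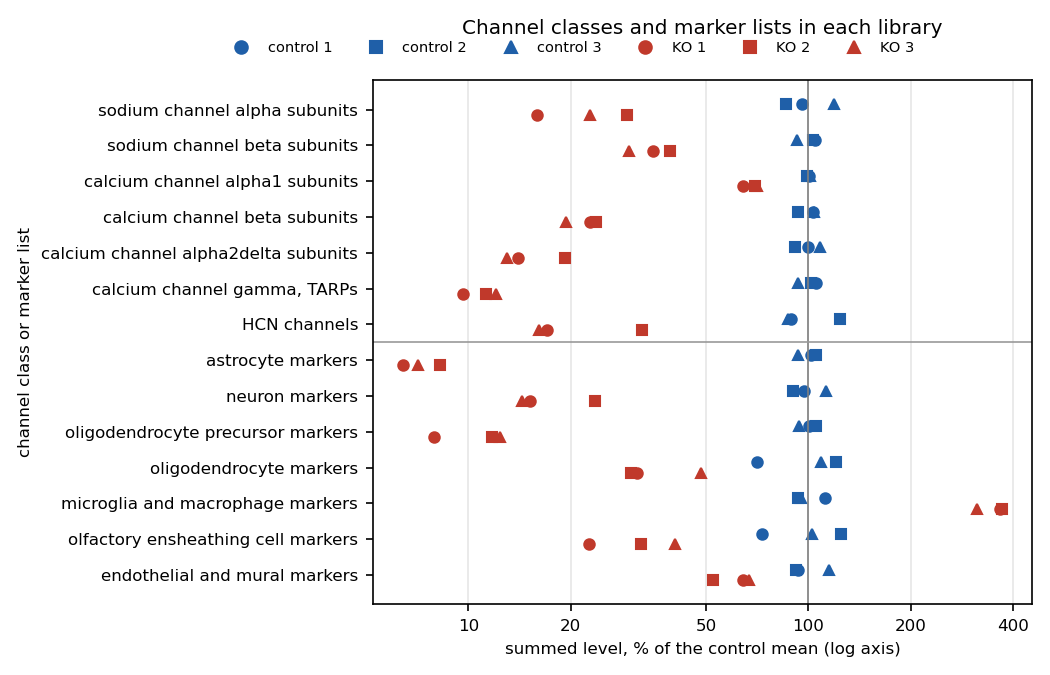
Summed level of each channel class (normalized counts per kb of exon) and of each marker list (normalized counts) as a percentage of its control mean (horizontal log axis), with 1 point per library, control in blue and KO in red, the marker shape giving the replicate. The calcium channel alpha1 class lies between 64.3% and 70.4% in KO, the other channel classes between 9.65% and 39.1%, and the microglia and macrophage markers between 312% and 371%.

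For the whole marker lists, all 12 astrocyte markers were called lower in KO (median log2 fold change −4.12), led in level by Slc1a2, Slc1a3 and Aqp4. Among the neuron markers 13 of 15 were called lower and none higher (median −2.51), Snap25, Map2 and Syt1 having the highest means, and no neuron marker was at 0 in any library. All 8 oligodendrocyte precursor markers, led by Olig1, Olig2 and Pdgfra, were called lower (median −2.90), as were 7 of 8 oligodendrocyte markers, with Mbp and Cnp among the highest (median −1.46), and 6 of 8 olfactory ensheathing cell markers, with Frzb and Npy among the highest (median −1.002). The microglia and macrophage markers, with Csf1r and Itgam among the highest, had 10 of 12 called higher and 2 lower (median 1.79). Of 12 endothelial and mural markers, 5 were called lower and 1, Flt1, higher, and Flt1, Pdgfrb and Rgs5 had the highest means. The tested channel members had a median of −2.25 in the same libraries, and which of these cell types it came from was not tested.

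Genes whose products bind or regulate these channels were taken from a list of 39 genes, of which 36 were listed and tested. Of these, 25 (69.4%) were called lower and 2 (5.56%) higher, against 28.8% and 22.2% of all genes tested. Their median log2 fold change was −1.82. All 7 scaffold genes of the axon initial segment and node were lower. Ank2, an ankyrin that anchors channels to the cytoskeleton, had 13710, 12992 and 13426 normalized counts in control and 1632, 2167 and 1794 in KO (−2.85, SE 0.11, adjusted p = 1.8e-08, limma), and the adhesion molecule Nrcam had 14318, 11409 and 12750 in control and 848, 1165 and 1492 in KO (−3.49, 0.18, adjusted p = 8.9e-08, limma). Both were lower in every KO library than in any control library.

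All 4 FGF genes whose proteins bind sodium channels (Fgf11 to Fgf14) and all 4 listed genes of the sodium leak channel complex (Nalcn, Unc79, Unc80 and Fam155a) were called lower. Their medians were −2.10 and −2.35. Beside 28.8% lower and 22.2% higher among all genes tested, 8 of 14 calcium channel regulators were called lower and 1 higher. That one was Rrad, a small GTPase that binds calcium channel beta subunits, with 174, 217 and 109 normalized counts in control and 341, 368 and 337 in KO (1.12, SE 0.24, adjusted p = 0.0023, limma). Among the 4 listed HCN partners, Pex5l, an HCN accessory protein, was called lower. It had 896, 2157 and 1729 in control and 269, 214 and 431 in KO (−2.35, 0.32, adjusted p = 0.00010, limma). Lrmp, a regulator of Hcn4 channels that lymphoid cells also express, had 208, 111 and 178 in control and 720, 739 and 618 in KO (2.10, 0.22, adjusted p = 1.5e-05, limma). Rrad and Lrmp were higher in every KO library than in any control library, and of the 3 sodium channel turnover and scaffold genes only Sntb1 was called, lower (−0.62).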

How the data were processed

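Libraries of TurboRFP-positive olfactory bulb cells were made from total RNA. The authors mapped reads to mm10 with STAR 2.5.0a, counted them per gene and normalized them with DESeq2 1.20.0 (submitters' processing notes). For the gene annotation and the strandedness of counting: not given in the sources used here. Signal values as deposited are named RPM, but 100% of them were whole multiples of 1 step per library (within 0.01 read), so they are read counts divided by a size factor. On these whole reads edgeR and DESeq2 were run as alternatives. The depths were 18242129 to 86906527 reads on genes, and the p-values measure the spread between 3 mice per group.

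Genes averaging 1 normalized count or more (18413 of 24421) were fitted with limma 3.58.1 (trend, log2(value + 1), no block) in R 4.3.3. Against a pseudocount of 0.1, the added 1 draws the fold changes of low genes toward 0, while the count models gave some of these genes smaller changes. Alternatives were edgeR 4.0.16 (quasi-likelihood), DESeq2 1.42.0, other pseudocounts, filters, scalings, thresholds and a replicate block, besides fits without 1 library each. The scripts were tested on simulated data. Gene lengths, positions and overlaps came from GENCODE (GRCm38), promoters from RefSeq. Values are given per library for members with a mean of at least 100 and for those called higher, for the 3 partner genes with the highest mean called in each direction, and for Sox9. Other members are named with their range, and Chdh, Pklr and the members that lost or gained a call were named after their values were seen. The values of some single genes are not reported here. The members and lists were chosen with earlier results of these data known.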

Additional observations from a re-analysis of the deposited data

How the results depend on the processing

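The direction of all called members was the same under the alternatives run. DESeq2 and edgeR each called 28 members lower and 1 higher. With each library left out in turn, between 28 and 30 members were called lower, and the median stayed between −2.46 and −1.98. Calls were lost in members that included Scn4b, Scn11a, Hcn4 and Cacna1a, in each case under part of the alternatives. Quantile normalization, which moved the median of all genes by 0.27, gave a member median of −1.66 and 2 members called higher (Cacna1s and Cacna1f, the second gained), and without a fold limit 2 were higher as well (Cacna1s and Cacna1d). Scaling to the same total moved the median of all genes by −0.24, and without Rn45s by −0.32. The cause of these shifts was not tested. The count of genes called lower was 32 with Scn2a1 added. Cacna1a had a log2 fold change of −0.57 with edgeR, short of 1.5-fold. Same-numbered control and KO libraries had deviations that correlated at −0.05, −0.01 and −0.01, and pairs with unlike numbers at −0.02 to 0.03. These values cannot show whether same-numbered libraries were handled together. With the replicate block 31 members were called lower and 1 higher (median −2.25). Using the longest transcript as length, the difference of KO minus control in class share was −1.25 points for Cacnb4 and −22.2 for Cacnb3, and with no length correction −8.11 for Cacnb4, −13.5 for Cacnb3, −28.9 for Scn3b, 31.5 for Cacna1d and −0.97 for Hcn3, so that the sign for Cacnb4 and Hcn3 depended on the length. Genes under 10 normalized counts rested on few reads.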

Other observations

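Several members are neighbours on the genome. On chromosome 2 the alpha subunit genes Scn3a, Scn1a, Scn9a and Scn7a lie between positions 65457118 and 66784914 (GRCm38), with Scn2a1 among them. Scn3a and Scn1a were called lower in KO (−3.72 and −2.25), while Scn9a and Scn7a overlapped between the groups. On chromosome 7 Cacng7, Cacng8 and Cacng6 lie between 3332955 and 3435667. Cacng7 and Cacng8 were called lower (−3.00 and −3.57), and Cacng6 was read in 2 of 6 libraries. On chromosome 11 Cacng4 and Cacng5 were called lower (−3.80 and −3.18) beside Cacng1, which was listed at 0 throughout.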
